A study of Mus musculus with 18 samples.

Results

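The 10 genes described here write, read, erase or guard DNA methylation in mouse cells: Dnmt1, Dnmt3a, Dnmt3b, Dnmt3l, Tet1, Tet2, Tet3, Uhrf1, Zfp57 and Trim28. They were taken by symbol from a table of 55450 genes, in which each of the 10 had 1 row. All samples are P19 cells, a mouse embryonic carcinoma line, and all groups therefore share the P19 background. WT cells (6 samples) have the genotype Dicer (+/+). HetKO cells (6 samples, Dicer (+/-)) carry a truncating loss-of-function mutation on 1 Dicer1 allele. HM cells (6 samples, Dicer (HM/-)) were made from HetKO and also carry the RNase IIIb hotspot mutation on the remaining allele. HetKO and HM are each 1 edited line, so a difference between lines cannot be told apart from a difference between clones, and the p-values measure only the spread between samples of these lines.

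DNA methylation is set de novo by Dnmt3a and Dnmt3b, whose activity is raised by the catalytically inactive cofactor Dnmt3l. Dnmt1 copies the mark onto newly made DNA after Uhrf1 has recognized half-methylated sites. The Tet enzymes oxidize 5-methylcytosine and thereby start its removal, whereas Zfp57 binds methylated imprinting control regions and recruits Trim28 (also known as KAP1), a scaffold for histone H3K9 methylation. Germ-line genes and imprinted genes are well-known loci whose silencing depends on this system in early embryonic cells. Dicer cuts miRNA precursors on both arms, the RNase IIIb domain releasing the 5p strand, and in embryonic stem cells without Dicer the Dnmt3 genes are known to be controlled by way of the Rb-like protein Rbl2.

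The values are TPM, transcript abundances per transcript length scaled to a sum of about 1000000 in each sample, so levels can be compared between genes but not traced back to a read number. Between 13066 and 14170 genes per sample reached 1 TPM. Dicer1 itself lay between 49.2 and 54.8 TPM in WT, 42.9 and 53.8 TPM in HetKO and 35.4 and 44.2 TPM in HM. Of 11 embryonic carcinoma markers, all averaged 1 TPM or more in WT and HM and 9 did so in HetKO, where Dppa5a was at 0 to 2.79 TPM and Zfp42 at 0.04 to 0.83 TPM. Their summed level, most of it Pou5f1, was 2887 to 3190 TPM in WT, 2705 to 3164 TPM in HetKO and 3097 to 3433 TPM in HM. The 16 markers of differentiated cells summed to 77.0 to 84.1 TPM in WT, 74.4 to 146.5 TPM in HetKO and 72.2 to 109 TPM in HM. Of these, the mesoderm gene T reached 110.5 and 66.2 TPM in HetKO replicates 2 and 5, whereas Ptprc and Afp did not exceed 0.10 and 0.04 TPM in any sample. Samples of a line also fell into alike pairs. The sources used here do not say whether the samples of a pair are independent. If they are not, the p-values from 6 samples per line are too small. For 683 highly expressed genes (mean of 200 TPM or more), log2 differences between samples had a robust SD of 0.049 to 0.11 within pairs (replicates 1 and 4, 2 and 5, and 3 and 6 in WT and HetKO, and 1 and 4, 2 and 3, and 5 and 6 in HM) and 0.073 to 0.36 between other samples of a line. The fits were therefore also run without HetKO replicates 2 and 5, without HM replicates 2 and 3 and, chosen after the values were seen, without WT replicates 1 and 4, HetKO replicates 1 and 4, HM replicates 1 and 4 or HM replicates 5 and 6.

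All 10 genes were detected in all 18 samples, but Dnmt3l was under 1 TPM in HetKO replicates 2, 4 and 5 (0.42, 0.99 and 0.51 TPM). Trim28 had the highest level in every line, with a median of 632.4 TPM in WT, 675.8 TPM in HetKO and 848.8 TPM in HM. Dnmt3b came next, followed by Dnmt3a. The maintenance pair Uhrf1 and Dnmt1 lay at about 100 TPM, above Tet1 and Zfp57. Tet2, Tet3 and Dnmt3l were the lowest, and their order differed between lines. In WT the samples of neighbours in this order overlapped for Dnmt3a and Uhrf1, for Tet2 and Dnmt3l, and for Dnmt3l and Tet3. Among the catalytic and cofactor Dnmt transcripts, Dnmt3b made up 55.8% ± 3.67 (SD, n = 6) of the summed TPM in WT, 60.2% ± 3.51 (SD, n = 6) in HetKO cells and 55.4% ± 4.45 (SD, n = 6) in HM. Among the Tet transcripts, Tet1 made up 71.3% ± 2.88 (SD, n = 6) in WT, 71.9% ± 3.97 (SD, n = 6) in HetKO cells and 79.5% ± 10.3 (SD, n = 6) in HM.

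**Figure D1:**
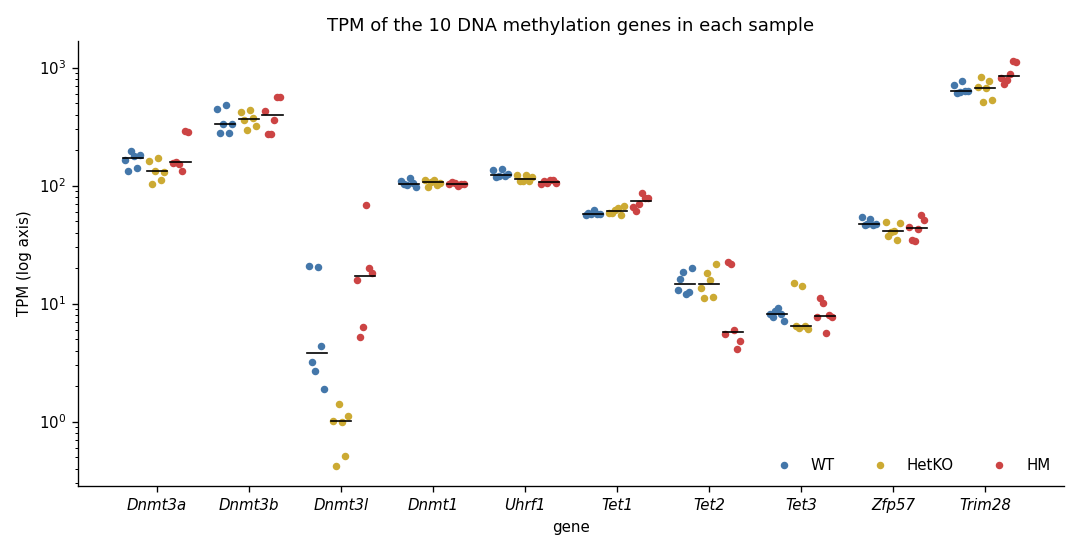
TPM of the 10 genes on a log axis, with a point for each of the 6 WT, 6 HetKO and 6 HM samples and a black line at each median. Dnmt3l spans the widest range, from 0.42 TPM in HetKO to 68.4 TPM in HM, whereas Dnmt1 stays between 96.9 and 115.6 TPM in all samples.

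The 10 genes lie on 8 chromosomes of the mm10 (GRCm38) genome. Tet1 (chr10:62804570-62908996, minus strand) and Dnmt3l (chr10:78041947-78063622, plus strand) share a chromosome, as do Zfp57 (chr17:37001163-37010635, plus strand) and Uhrf1 (chr17:56303321-56323486, plus strand). Dnmt3l overlaps the opposite-strand gene Aire, which did not exceed 3.23 TPM. The germ-line methyltransferase gene Dnmt3c (ENSMUSG00000082079.2), a close relative of Dnmt3b that could share its reads, did not exceed 0.49 TPM. The opposite-strand transcript Dnmt3bos did not exceed 0.93 TPM. How reads of overlapping or similar genes were shared out by strand is not given in the sources used here.

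Promoters are shown for the genes whose levels varied most between samples, Dnmt3l and Tet2, because CpG pairs are the bases that the enzymes of this pathway act on. The RefSeq promoter table (GRCm38.p6, 250 bases before to 50 bases after the start) held all 10 genes, with 19 starts. CpG pairs are in capitals.
Dnmt3l, chr10:78042037-78042336, plus strand: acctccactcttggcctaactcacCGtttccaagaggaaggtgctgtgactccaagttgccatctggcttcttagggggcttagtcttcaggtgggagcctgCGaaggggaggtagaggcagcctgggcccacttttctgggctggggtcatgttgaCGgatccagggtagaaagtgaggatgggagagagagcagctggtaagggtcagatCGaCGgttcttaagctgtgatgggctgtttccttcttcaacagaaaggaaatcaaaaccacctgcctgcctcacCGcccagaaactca
Tet2, chr3:133544341-133544640, minus strand: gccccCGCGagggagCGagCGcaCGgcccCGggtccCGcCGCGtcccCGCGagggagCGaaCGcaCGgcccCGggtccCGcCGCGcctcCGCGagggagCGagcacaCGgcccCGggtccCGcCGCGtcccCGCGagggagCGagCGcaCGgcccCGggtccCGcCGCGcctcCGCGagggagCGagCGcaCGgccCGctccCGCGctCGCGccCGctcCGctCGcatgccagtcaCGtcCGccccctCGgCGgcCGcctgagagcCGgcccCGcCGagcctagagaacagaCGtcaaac
The Dnmt3l window has 6 CpG pairs and the Tet2 window has 57, against a median of 7 over 32851 promoters of 300 bases. Of all promoters, 43.6% had fewer CpG pairs than that of Dnmt3l and 99.8% had fewer than that of Tet2. The other starts of Dnmt3l had 4 and 3 CpG pairs, and those of Zfp57 had 4, 6 and 9. Dnmt3b (30 pairs), Trim28 (23), Tet3 (22) and Tet1 (17) were all above the median. DNA methylation itself was not analysed here, so the windows describe sequence only.

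Because the hotspot mutation acts on the 5p strand of miRNAs, the longest annotated 3′ UTR of each gene was searched for matches to miRNA seeds. The seeds are those of 5p strands (miR-7a, miR-15b, miR-16, miR-17, miR-20b and miR-26a), of passenger 3p strands of the same hairpins (miR-7a-1, miR-15b, miR-17 and miR-20b), and of 2 families of 3p guide strands, miR-29, a known regulator of Dnmt3 and Tet transcripts, and miR-290 to miR-295, the main cluster of mouse embryonic stem cells. Each seed is shown once, from RefSeq, with seed bases 2 to 8 in capitals. The seeds of miR-15b-5p and miR-16-5p are the same, as are those of miR-17-5p and miR-20b-5p, of miR-17-3p and miR-20b-3p, of the 3 miR-29 strands and of miR-291a-3p, miR-294-3p and miR-295-3p.
miR-7a-5p: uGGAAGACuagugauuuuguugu
miR-16-5p: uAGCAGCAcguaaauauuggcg
miR-17-5p: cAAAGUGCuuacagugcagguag
miR-26a-5p: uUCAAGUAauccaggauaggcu
miR-7a-1-3p: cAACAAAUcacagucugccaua
miR-15b-3p: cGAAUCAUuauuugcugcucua
miR-17-3p: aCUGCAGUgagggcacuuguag
miR-29a-3p: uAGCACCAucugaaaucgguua
miR-294-3p: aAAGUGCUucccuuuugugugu
The letters searched on the transcript strand were GTCTTCC for miR-7a-5p, TGCTGCT for miR-16-5p, GCACTTT for miR-17-5p, TACTTGA for miR-26a-5p, ATTTGTT for miR-7a-1-3p, ATGATTC for miR-15b-3p, ACTGCAG for miR-17-3p, TGGTGCT for miR-29a-3p and AGCACTT for miR-294-3p. Those of miR-17-5p and miR-294-3p overlap by 6 bases, so 1 stretch can hold both.

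The 10 genes divided by UTR. Tet1 (7962 bases), Dnmt3a (6696), Tet3 (5669) and Tet2 (3058) had 3′ UTRs longer than the median of 1187 bases over 12113 genes, and they held 17, 12, 20 and 10 matches. Dnmt3b (1331 bases), also above the median, held 2, and Uhrf1 (984 bases) held 1. Dnmt1, Dnmt3l, Trim28 and Zfp57, with 312, 273, 173 and 114 bases, held none of the 9 seeds. The miR-29 letters were in 5 of the 10 genes, against 15.9% of all genes. The miR-17-5p and miR-26a-5p letters were each in Dnmt3a and all 3 Tet genes, against 14.6% and 11.5% of all genes. The passenger letters of miR-17-3p were in Dnmt3a, Tet1 and Tet2 (16.7% of all genes), those of miR-7a-1-3p in Tet1 (20.8%) and those of miR-15b-3p in Tet3 (7.62%). The letters of miR-7a-5p were in Dnmt3a, Dnmt3b and Uhrf1 (14.0%), those of miR-15b-5p in Tet3 (24.8%) and those of miR-294-3p in the 3 Tet genes (17.5%). UTR length was not matched in these shares. A match is a description of letters, and miRNA levels were not analysed here.

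Examples of matches in Uhrf1, Tet1 and Tet2 are shown with 10 bases on each side, the matched letters in capitals. These genes were taken because they are the ones with matches that changed in HM or differed most among HM samples. Most of the 17 matches in Tet1 and of the 10 in Tet2 are not shown.
Uhrf1, match to miR-7a-5p, UTR position 372, chr17:56322864-56322890, plus strand: gcccagacatGTCTTCCtggcagctat
Tet1, match to miR-17-5p, UTR position 641, chr10:62811875-62811901, minus strand: attttaaaaaGCACTTTctacttttaa
Tet1, match to miR-17-3p, UTR position 5305, chr10:62807211-62807237, minus strand: aatccctagtACTGCAGaaaggaccaa
Tet2, match to miR-26a-5p, UTR position 2709, chr3:133464012-133464038, minus strand: gtgtcaacatTACTTGAatgaattttt
Tet2, match to miR-29a-3p, UTR position 557, chr3:133466164-133466190, minus strand: taacattaaaTGGTGCTacaaatggtg

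**Figure D2:**
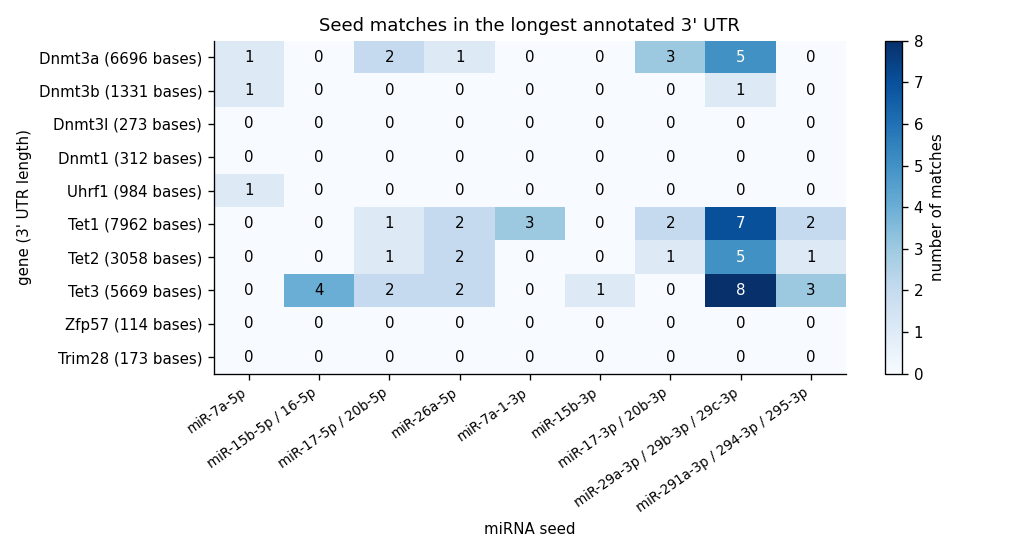
Number of matches (color and digits) to each of 9 miRNA seeds in the longest 3′ UTR of each gene, whose length is given on the vertical axis. Tet1, Tet2, Tet3 and Dnmt3a hold most of the matches, and Dnmt3l, Dnmt1, Zfp57 and Trim28 hold 0.

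Between HM and WT, Trim28 and Tet1 were higher in HM and Uhrf1 was lower, while the Dnmt transcripts did not pass the test. These 3 of 10 genes were called by limma on log2(TPM + 1) with a Benjamini-Hochberg adjusted p under 0.05, and all 10 passed the filter of a mean of 1 TPM. Among all 14043 genes tested, 51.4% were called, 19.4% higher and 32.0% lower, so these genes changed no more often than genes in general. Their median log2 fold change was 0.09, against -0.09 over all genes. In 1 of the 10 genes (Uhrf1) the samples of the lines did not overlap, against 28.5% of all genes. The median over all genes moved to 0.08 when samples were centred on their median, a shift of over 0.1, and the share of calls that were higher moved from 37.7% to 61.0% (51.1% with quantile normalization). After centring, the calls were 3 higher and 0 lower. With the means of alike pairs as replicates, only Tet1 kept its call.

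Trim28, the corepressor scaffold, was higher in HM than in WT. It was 603.9 to 766.8 TPM in WT (median 632.4), 511.3 to 828.4 TPM in HetKO (median 675.8) and 724.5 to 1140 TPM in HM (median 848.8). The highest values were the 1140 and 1120 TPM of HM replicates 5 and 6, and the HM and WT samples overlapped only between 724.5 and 766.8 TPM. The log2 fold change was 0.45 (standard error 0.11, adjusted p = 0.00531 from limma) against WT and 0.45 (standard error 0.15, adjusted p = 0.0295 from limma) against HetKO. The call against WT was lost with the means of the alike pairs as replicates (adjusted p = 0.0735), and the call against HetKO in 6 of 14 alternatives. Without HM replicates 5 and 6 the log2 fold change was 0.28 (adjusted p = 0.0141 from limma) against WT and 0.28 (adjusted p = 0.158 from limma) against HetKO, where it was 0.49 (adjusted p = 0.0557 from limma) without HM replicates 1 and 4.

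Tet1, the main Tet enzyme of pluripotent cells, was 56.4 to 62.4 TPM in WT (median 57.4), 56.5 to 67.5 TPM in HetKO (median 60.8) and 60.9 to 85.7 TPM in HM (median 74.1). Only HM replicate 2, at 60.9 TPM, lay within the WT range. The log2 fold change was 0.32 (standard error 0.08, adjusted p = 0.00373 from limma) against WT and 0.24 (standard error 0.08, adjusted p = 0.0389 from limma) against HetKO. The first call was kept in 13 of 13 alternatives. The second was lost in 7 of 14, among them without HetKO replicates 1 and 4 (0.24, adjusted p = 0.0979) or 2 and 5 (0.20, adjusted p = 0.0989), and without HM replicates 1 and 4 (0.22, adjusted p = 0.0772) or 5 and 6 (0.19, adjusted p = 0.17).

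Uhrf1 was 118.6 to 137.2 TPM in WT (median 122.8), 108.3 to 122.3 TPM in HetKO (median 114.4) and 103.8 to 111.9 TPM in HM (median 107.5). Every HM sample was below every WT sample, while HetKO lay between and overlapped both. The log2 fold change of HM against WT was -0.22 (SE 0.05, limma adjusted p = 0.00235), and it was -0.05 (adjusted p = 0.596) after centring on the sample median. Its adjusted p was 0.0836 with pair means. Its partner Dnmt1 was 97.0 to 115.6 TPM in WT (median 103.7), 96.9 to 112.5 TPM in HetKO (median 106.1) and 99.0 to 106.4 TPM in HM (median 103.5). For Dnmt1 the log2 fold change of HM against WT was -0.02 (SE 0.05, limma adjusted p = 0.758), and turned to 0.16 after centring (adjusted p = 0.0459). The ratio of Dnmt1 to Uhrf1 TPM within a sample, which does not depend on scaling, was 0.834 ± 0.0385 (SD, n = 6) in WT, 0.919 ± 0.0387 (SD, n = 6) in HetKO cells and 0.962 ± 0.044 (SD, n = 6) in HM.

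**Figure D3:**
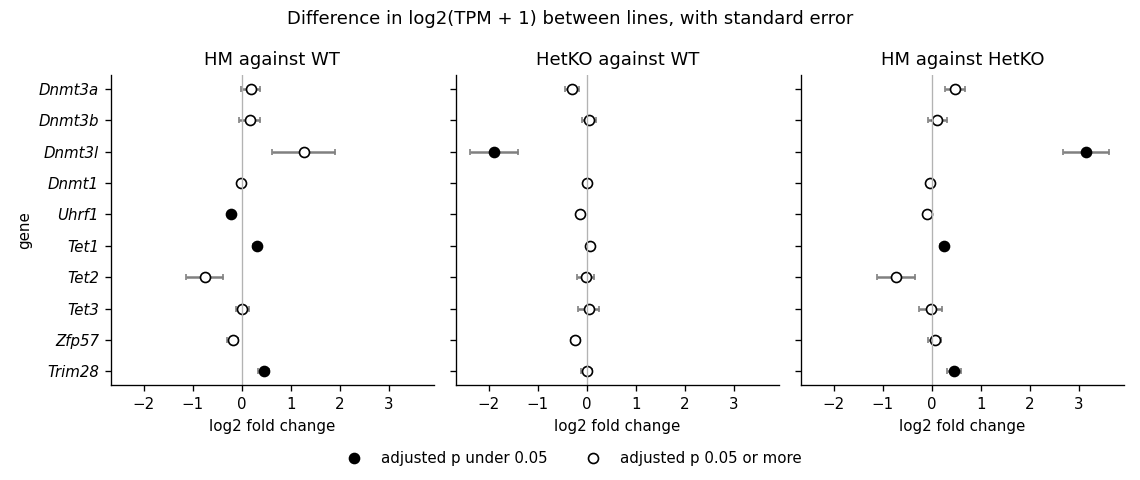
Log2 fold change of each gene on the log2(TPM + 1) scale with its standard error, for HM against WT, HetKO against WT and HM against HetKO. Filled points have an adjusted p under 0.05 from limma: Uhrf1, Tet1 and Trim28 in the first panel, Dnmt3l in the second, and Dnmt3l, Tet1 and Trim28 in the third.

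Dnmt3l, the cofactor of de novo methylation, was lower in every HetKO sample than in any sample of the other lines. In WT it was 20.9 and 20.4 TPM in replicates 1 and 4 but only 1.88 to 4.41 TPM in the other 4 samples. In HetKO it was 0.42 to 1.42 TPM (median 1.01), below every WT sample. In HM it was 5.25 and 6.32 TPM in replicates 2 and 3, 15.8 to 19.9 TPM in replicates 1, 5 and 6, and 68.4 TPM in replicate 4. The mean fell from 8.91 TPM in WT to 0.913 TPM in HetKO and was 22.3 TPM in HM. The HetKO mean was below the 1 TPM filter, so Dnmt3l entered both fits with HetKO only through the level of the other line. The ranges within HM and WT, 3.47 and 2.93 on the log2 scale, were the widest of any of the 10 genes in any line, and HM replicates 1 and 4, an alike pair over highly expressed genes, differed by 2.05 on the log2 scale.

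Between HetKO and WT, Dnmt3l was the 1 gene of the 10 that was called, at -1.89 (standard error 0.49, adjusted p = 0.0296 from limma). Among all 13999 genes, 10.2% were called, 3.71% higher and 6.44% lower, and 8.21% did not overlap. The 9 other genes were not called, and the median of the 10 was -0.01 against -0.03 over all genes. Dnmt3l lost its call with the means of alike pairs (adjusted p = 0.394), with an unequal-variance test (adjusted p = 0.113), with no filter on low TPM (adjusted p = 0.0541) and without HetKO replicates 2 and 5 (-1.71, adjusted p = 0.108) or 1 and 4 (-1.93, adjusted p = 0.053). Without WT replicates 1 and 4, a setting added once the values had been seen, its log2 fold change was -1.07 (adjusted p = 0.0139).

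Between HM and HetKO, Dnmt3l was higher in HM by 3.15 on the log2 scale (SE 0.47, limma adjusted p = 0.000402), and the samples did not overlap. Together with Tet1 and Trim28, 3 of the 10 genes were called higher and 0 lower (1 and 0 without HM replicates 5 and 6 or without HetKO replicates 1 and 4), against 14.0% higher, 20.6% lower and 34.6% in all among 13762 genes. Samples of the lines did not overlap for 15.5% of all genes and for 1 of the 10, Dnmt3l. The difference between HM and WT, at 1.26 (standard error 0.65), did not pass (adjusted p = 0.122 from limma). It passed with WT replicates 1 and 4 left out (2.08, adjusted p = 0.0102) and with HM replicates 2 and 3 left out (1.91, adjusted p = 0.029).

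The genes whose level across the 18 samples was most like that of Dnmt3l were Tex19.1 (Pearson r = 0.955), Ripk3 (0.95), Boll (0.95), Gsta3 (0.945) and Atp2b1 (0.934), out of 13956 genes averaging 1 TPM or more. Genes with only a model name, though counted in the 13956, were left out of this ranking. Tex19.1, a germ-line gene known for promoter methylation, was 5.53 and 6.00 TPM in WT replicates 1 and 4 and 1.31 to 1.80 TPM in the other WT samples, 0.59 to 1.79 TPM in HetKO and 3.28 to 7.36 TPM in HM. Boll, a germ-cell RNA-binding protein, was 5.45 and 2.24 TPM in WT replicates 1 and 4, at most 0.09 TPM in HetKO and 2.05 to 6.36 TPM in HM. WT replicates 1 and 4 also had more Dppa3, the germ-line and oocyte factor that limits Uhrf1 on chromatin, at 5.61 and 7.72 TPM against 0.26 to 1.51 TPM in the other WT samples. Among the embryonic carcinoma markers, Nanog was lower in the same samples, at 28.4 and 26.4 TPM against 52.5 to 62.4 TPM, whereas Dppa5a was higher, at 41.6 and 37.5 TPM against 2.90 to 3.75 TPM, as was Utf1, at 265.3 and 306.8 TPM against 173.7 to 199.6 TPM. Dppa3 had a mean of 2.68 ± 3.19 TPM (SD, n = 6) in WT, 0.137 ± 0.221 TPM (SD, n = 6) in HetKO cells and 1.07 ± 0.945 TPM (SD, n = 6) in HM, and was not called between HM and WT (adjusted p = 0.416 from limma). The part of these genes in the Dnmt3l result was not tested.

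Tet2 split the HM samples. It was 11.9 to 19.9 TPM in WT (median 14.6) and 11.2 to 21.8 TPM in HetKO (median 14.7). In HM it was 4.12 to 6.02 TPM in replicates 1, 4, 5 and 6, below every sample of the other lines, and 22.7 and 21.7 TPM in replicates 2 and 3, above every WT sample. The log2 fold change of HM against WT was -0.76 (SE 0.38, limma adjusted p = 0.113). Without HM replicates 2 and 3 it was -1.40 (adjusted p = 6.99e-05) against WT and -1.38 (adjusted p = 0.000331) against HetKO. The same 2 samples differed around the gene: over the 43 tested genes within 5 Mb of Tet2, the median log2 level relative to the WT mean was 0.33 and 0.34 in HM replicates 2 and 3 and -0.11 to -0.04 in the other 4 HM samples. Their part in the Tet2 values was not tested. Tet2 made up 23.9% and 21.2% of the Tet transcripts in HM replicates 2 and 3, and 4.56% to 6.97% in the other HM samples.

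Tet3 was 7.05 to 9.16 TPM in WT (median 8.15) and 5.58 to 11.2 TPM in HM (median 7.83). In HetKO it was 14.9 and 14.0 TPM in replicates 1 and 4, and 6.03 to 6.49 TPM in the other 4 samples. No comparison of Tet3 passed, and its log2 fold changes lay between -0.02 and 0.04. Without HetKO replicates 1 and 4, it was lower in HetKO than in WT (-0.32, adjusted p = 0.0326 from limma).

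The de novo enzymes varied by alike pair as well. Dnmt3b was 277.6 to 483.6 TPM in WT (median 334.4), 296.0 to 434.1 TPM in HetKO (median 364.1) and 272.4 to 567.9 TPM in HM (median 394.9). Dnmt3a was 131.6 to 195.8 TPM in WT (median 170.5), 103.6 to 170.6 TPM in HetKO (median 131.8) and 132.6 to 288.9 TPM in HM (median 157.3). HM replicates 5 and 6 held the highest values of both genes, 567.9 and 567.0 TPM of Dnmt3b and 288.9 and 282.3 TPM of Dnmt3a, while the other 4 HM samples lay within or close to the WT range. Neither passed between HM and WT, Dnmt3b being at 0.16 (standard error 0.21, adjusted p = 0.539 from limma) and Dnmt3a at 0.18 (standard error 0.19, adjusted p = 0.461 from limma). Between HM and HetKO, Dnmt3a was at 0.48 (standard error 0.21, adjusted p = 0.087 from limma), and it passed in the fit of all 3 lines (adjusted p = 0.0475), after centring (0.60, adjusted p = 0.0399) and without HM replicates 1 and 4 (0.66, adjusted p = 0.0414). Without HM replicates 5 and 6, both genes turned to the other side of 0 between HM and WT, at -0.13 for Dnmt3a and -0.10 for Dnmt3b, and Dnmt3a was at 0.17 (adjusted p = 0.4 from limma) between HM and HetKO. Without HetKO replicates 1 and 4, Dnmt3a was lower in HetKO than in WT (-0.46, adjusted p = 0.0303 from limma).

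Zfp57, the zinc-finger protein that finds methylated imprints, was 46.6 to 54.4 TPM in WT (median 47.4), 34.3 to 49.1 TPM in HetKO (median 41.1) and 34.0 to 56.2 TPM in HM (median 43.9). Its lines overlapped, and it was not called in any comparison (adjusted p = 0.203, 0.108 and 0.765 from limma for HM against WT, HetKO against WT and HM against HetKO). Without HM replicates 5 and 6 it was lower in HM than in WT (-0.33, adjusted p = 0.013 from limma). Zfp445, a zinc-finger protein that also guards imprints, was not called either, at 87.7 ± 2.82 TPM (SD, n = 6) in WT, 89.1 ± 7.38 TPM (SD, n = 6) in HetKO cells and 91.2 ± 7.34 TPM (SD, n = 6) in HM.

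**Figure D4:**
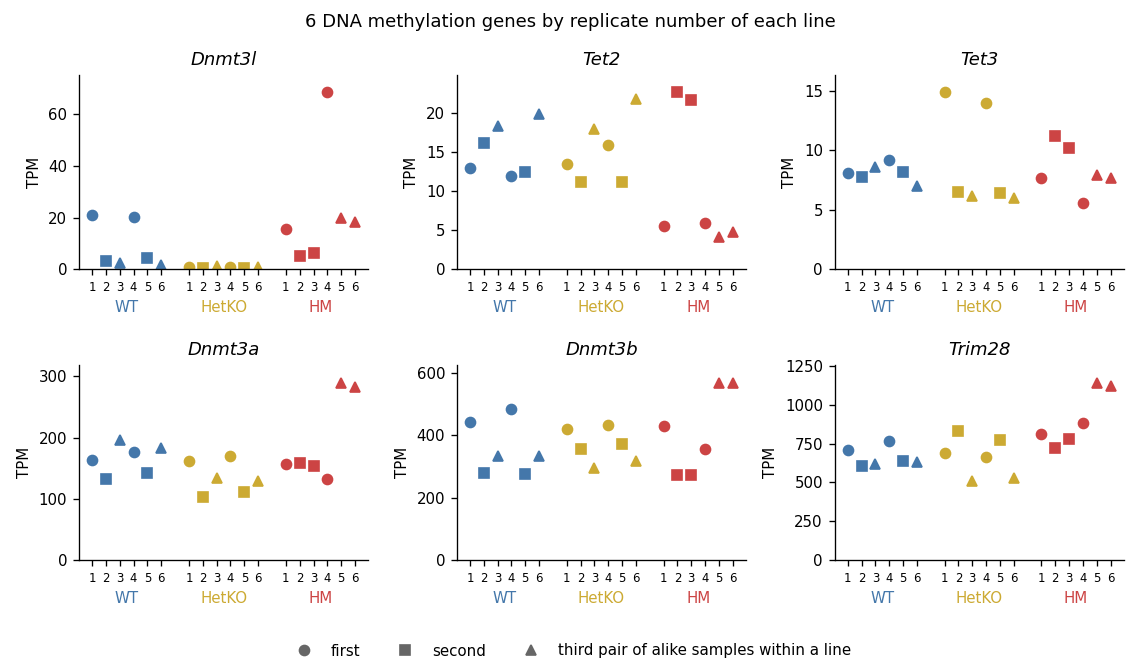
TPM of Dnmt3l, Tet2, Tet3, Dnmt3a, Dnmt3b and Trim28 by replicate number, with the marker shape giving the alike pair within each line. WT replicates 1 and 4 stand high for Dnmt3l, HM replicates 2 and 3 for Tet2, HetKO replicates 1 and 4 for Tet3, and HM replicates 5 and 6 for Dnmt3a, Dnmt3b and Trim28.

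The other genes of the pathway were described from lists, by counts of calls between HM and WT beside the 51.4% and the median of -0.09 of all genes. These lists were written with earlier results of these data known. The first list held enzymes that set or remove H3K4 and H3K36 methylation, the histone marks that the Dnmt3 proteins read. Of these, 11 of 11 were called, 9 higher and 2 lower, with a median log2 fold change of 0.25. Those higher were methyltransferases (Nsd1, Setd2, Kmt2a and Kmt2b) as well as demethylases (Kdm1a, Kdm2b, Kdm5a, Kdm5b and Kdm5c). Nsd1, an H3K36 methyltransferase, was the largest, at 32.7 ± 7.73 TPM (SD, n = 6) in WT, 28.99 ± 2.00 TPM (SD, n = 6) in HetKO cells and 58.5 ± 3.20 TPM (SD, n = 6) in HM (0.85, adjusted p = 0.00014 from limma). The demethylases Kdm2b (0.33) and Kdm5b (0.32) were also higher, and the methyltransferase Nsd2 was lower (-0.36). The list had 9 higher and 1 lower after centring, 7 and 1 after quantile normalization, 2 and 1 with pair means, 5 and 2 without WT replicates 1 and 4 and 4 and 2 without HM replicates 5 and 6. Kdm2b was not called with pair means (adjusted p = 0.143), with the replicate block (0.053) or without HM replicates 2 and 3 (0.19, adjusted p = 0.0755).

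Of 10 partners of maintenance methylation, 3 were higher and 3 lower in HM (4 and 2 after centring), with a median of 0.00. Cdca7, which recruits the remodeler Hells to hemimethylated DNA, fell from 97.3 ± 5.54 TPM (SD, n = 6) in WT to 52.2 ± 7.14 TPM (SD, n = 6) in HM (-0.90, adjusted p = 6.57e-06 from limma), and Uhrf2, the paralog of Uhrf1, from 54.4 ± 2.80 TPM (SD, n = 6) to 29.2 ± 5.26 TPM (SD, n = 6) (-0.89, adjusted p = 4.32e-05 from limma). Hells was higher by 0.52 and the deacetylase Hdac1 by 0.51, the call of Hells being lost with pair means (adjusted p = 0.123) and without HM replicates 5 and 6 (0.32, adjusted p = 0.103). Among 17 partners of H3K9 methylation and imprint protection, 3 were higher and 4 lower (11 and 3 after centring), with a median of 0.06. Setdb1, the H3K9 methyltransferase that Trim28 recruits, was higher by 0.58 in HM and by 0.59 in HetKO (adjusted p = 0.000767 and 0.00143 from limma, the second 0.183 with pair means), Cbx3 was higher by 0.41, and Atf7ip (-0.74), which stabilizes Setdb1, and Smchd1 (-0.39) were lower.

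Genes of repair and active removal leaned the other way, with 1 of 15 tested higher and 9 lower (2 and 6 after centring) and a median of -0.46. The glycosylases Neil2 (-1.41) and Smug1 (-0.91) and the deaminase Apobec1 (-1.11) were lower, and the endonuclease Apex1 was higher (0.98). In methyl donor supply 4 of 15 were higher and 3 lower (8 and 2 after centring), with a median of 0.08. Mat2a, which makes S-adenosylmethionine, was 78.6 ± 10.7 TPM (SD, n = 6) in WT and 266.6 ± 87.1 TPM (SD, n = 6) in HM (1.70, adjusted p = 1.67e-05 from limma), and 211.2 and 188.8 TPM in HetKO replicates 2 and 5 against 67.1 to 69.9 TPM in the other HetKO samples. Shmt1 (0.71) and Amd1 (0.51) were higher and Mthfd1l (-0.61) was lower.

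Of the Rb family and E2f factors, 4 of 9 were higher and 3 lower, also after centring, with a median of -0.13. Rbl2 was 3.49 ± 0.645 TPM (SD, n = 6) in WT, 2.09 ± 0.901 TPM (SD, n = 6) in HetKO cells and 1.69 ± 0.666 TPM (SD, n = 6) in HM, lower in HM by -0.77 on the log2 scale (adjusted p = 0.00191 from limma). E2f1 was lower (-0.86), and E2f4 (0.76) and E2f3 (0.71) were higher.

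Loci that DNA methylation is known to silence or imprint were read in the same way. Of 19 germ-line genes only 4 reached the filter, and Ddx4 fell from 1.90 ± 0.579 TPM (SD, n = 6) in WT to 0.20 ± 0.0678 TPM (SD, n = 6) in HM (adjusted p = 4.43e-05 from limma). In HetKO it was at 0 to 0.09 TPM, below every HM sample. Tex19.1 was higher in HM than in WT by 0.77 (adjusted p = 0.0484 from limma), a call lost with no filter on low TPM (adjusted p = 0.1), with the unequal-variance test (0.0915), with pair means (0.188), and without HM replicates 1 and 4 (0.108) or 5 and 6 (0.196). In the Dlk1-Dio3 cluster all 4 tested transcripts were lower in HM under every scaling. Meg3 had a mean of 274.4 ± 16.6 TPM (SD, n = 6) in WT and 160.8 ± 74.3 TPM (SD, n = 6) in HetKO, and was at most 0.01 TPM in HM. Rian had a mean of 390.4 ± 21.7 TPM (SD, n = 6) in WT and 1.36 ± 0.867 TPM (SD, n = 6) in HM, and Mirg and Dlk1 were lower as well. In HetKO, Rian was 113.0 and 110.4 TPM in replicates 2 and 5 and 289.4 to 362.3 TPM in the other samples. The low level of Dlk1 was not particular to HM, being 0 to 0.33 TPM in HetKO and 0 to 0.55 TPM in HM. Its log2 fold change of HetKO against WT was -1.30 (adjusted p = 0.0153 from limma), a call lost with pair means. Among 23 other imprinted genes tested, 10 were higher and 6 lower (13 and 2 after centring), with a median of 0.23. Igf2r was 1.71 to 10.8 TPM in WT, at most 0.23 TPM in HetKO and 14.3 to 17.3 TPM in HM. Inpp5f (1.46) and Usp29 (1.28) were higher, and Nnat was listed at 0 in every HetKO and HM sample and at 0.22 to 13.5 TPM in WT, highest in replicates 1 and 4. The HM-WT call of Nnat was lost in several alternatives, centring among them (adjusted p = 0.068). Dlk1 and Nnat, too, reached the filter only through their WT level. Between HetKO and WT, where 10.2% of all genes were called, 5 of the 17 partners of H3K9 methylation and imprint protection were called (2 higher and 3 lower), as were 4 of 16 genes of methyl donor supply (2 and 2) and 3 of 24 other imprinted genes (1 and 2). With the means of alike pairs, limma called 1 gene over these 3 lists. Between HM and HetKO, where 34.6% were called, the H3K4 and H3K36 enzymes had 6 of 11 higher and 1 lower, and the genes of repair and active removal had 1 of 14 higher and 5 lower. These became 2 and 1, and 1 and 2, without HM replicates 5 and 6, and with pair means limma called 1 gene over both lists.

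**Figure D5:**
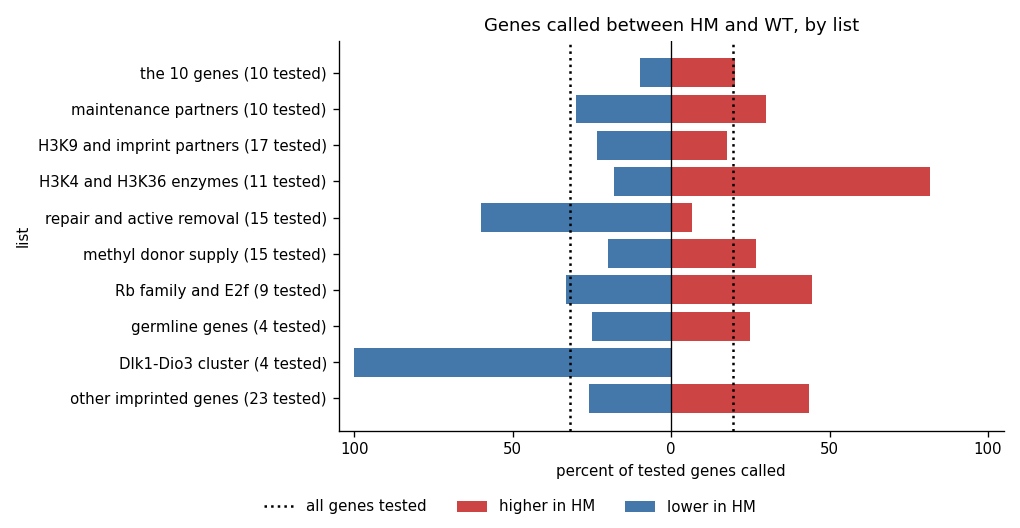
Percent of the tested genes of each list that were called higher (red, right) or lower (blue, left) in HM against WT by limma, with dotted lines at the 19.4% and 32.0% of all genes. The 10 methylation genes lie near or inside both lines, the H3K4 and H3K36 enzymes reach furthest to the right, and the Dlk1-Dio3 cluster reaches furthest to the left.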

How the data were processed

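Poly(A)-selected, stranded mRNA libraries of 18 P19 samples were analysed. Per the study's methods, the authors used BBMerge to merge read pairs and RSEM to quantify genes, and the deposited values are TPM. The submitters' processing notes also name cutadapt, STAR and mm10, and versions are not given in the sources used here. All 55450 gene identifiers matched GENCODE M21 of GRCm38, which supplied positions and 3′ UTRs. TPM keeps no depth, so no interval or floor was set.

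For each pair of lines, genes averaging 1 TPM or more in its 12 samples entered a limma fit (version 3.58.1, R 4.3.3) of log2(TPM + 1) with a variance trend, two-sided, adjusted by Benjamini-Hochberg over all genes tested. Fold changes on this scale understate those of low genes. The fit was tested on simulated data in which all samples were drawn independently. These data held no alike pairs, so the test could not show how such pairs affect the calls. Sums, ratios, seed searches and plots used Python 3.11.15, numpy 2.4.6, pandas 2.3.3 and matplotlib 3.10.9. The genes named are the 10 genes, Dicer1, Rbl2, Zfp445, Dppa3 and Dnmt3c, up to 4 called genes of each list by size of change, and the 5 genes most like Dnmt3l. Other genes, the sample markers among them, were named after their values were seen. The members and lists were chosen with earlier results of these data known. Lists were maintenance partners, H3K9 and imprint partners, H3K4 and H3K36 enzymes, active removal, methyl donor supply, Rb and E2f factors, germ-line genes, the Dlk1-Dio3 cluster, other imprinted genes and 2 marker lists. A further list is not reported here.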

Additional observations from a re-analysis of the deposited data

Results flagged for a closer look

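Over 33 groups of 6 samples (the 10 genes and Dicer1 in 3 lines), 1 sample stood apart from the others of its group by Dixon's test at the 95% level, where chance alone flags about 1 in 20 groups. This was Dnmt3l in HM replicate 4, at 68.4 TPM, against 5.25 to 19.9 TPM in the other HM samples. Its gap to the nearest sample was 0.769 of the range of the group. Dixon's test was run on TPM and was not repeated on the log2 scale of the fits. Without HM replicates 1 and 4, Dnmt3l was at 0.74 on the log2 scale for HM against WT (limma, adjusted p = 0.369) and at 2.63 for HM against HetKO (limma, adjusted p = 0.000587).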

How the results depend on the processing

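Of 389 values of the 10 genes under 15 alternatives (11 planned and 4 chosen after seeing the data), 333 had the same sign and the same call as in the report. With the same sign, 21 lost a call and 10 gained a call, and 25 changed sign. Those that changed sign include Dnmt1 after centring (HM against WT) and Tet3 without HetKO replicates 1 and 4 (HetKO against WT), which were then called. With the means of alike pairs as replicates, 1 of the 10 genes was called for HM against WT (Tet1), 0 for HetKO against WT and 1 for HM against HetKO (Dnmt3l), and 3414, 35 and 454 of all genes. With no filter on low TPM, 0 of the 10 were called for HetKO against WT and 1 for HM against HetKO. With a mean of at least 5 TPM, 0 were called between HetKO and WT, since Dnmt3l was not tested. With the unequal-variance test per gene, 0 were called between HetKO and WT, with 852 of all genes, and 1 between HM and HetKO. Without HetKO replicates 2 and 5, 0 were called between HetKO and WT, and without HM replicates 2 and 3, 5 were called between HM and WT. Without HetKO replicates 1 and 4, 2 were called between HetKO and WT (Dnmt3a and Tet3) and 1 between HM and HetKO (Dnmt3l). Without HM replicates 5 and 6, 1 was called between HM and HetKO (Dnmt3l), with 2785 of all genes. At an unadjusted p under 0.05, 4 of the 10 passed between HetKO and WT in the limma fit of the report. The share of all genes at that threshold was not counted, so this count has no background. The same holds for the other counts given here without a count of all genes. Where no reason is given here, the cause was not tested.

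The 25 changes of sign concerned values between -0.09 and 0.18 in the report. After centring, Dnmt1 was at 0.16 (HM against WT) and 0.088 (HM against HetKO), Tet2 at 0.037 and Trim28 at 0.050 (HetKO against WT), and Tet3 at 0.093 and Uhrf1 at 0.022 (HM against HetKO). After quantile normalization, Dnmt1 was at -0.0086 and Tet2 at 0.048 (HetKO against WT) and Tet3 at 0.089 (HM against HetKO). Without HM replicates 2 and 3, Tet3 was at -0.16 (HM against WT). Without WT replicates 1 and 4, Dnmt1 was at 0.031 (HM against WT) and Trim28 at 0.077 (HetKO against WT). Without HetKO replicates 2 and 5, Tet2 was at 0.17 (HetKO against WT) and Zfp57 at -0.050 (HM against HetKO). Without HM replicates 1 and 4, Tet3 was at 0.12 (HM against HetKO). Without HM replicates 5 and 6, Dnmt3a was at -0.13 and Dnmt3b at -0.0996 (HM against WT), and Dnmt3b at -0.15, Tet3 at 0.0083 and Zfp57 at -0.093 (HM against HetKO). Without HetKO replicates 1 and 4, Dnmt1 was at -0.036, Dnmt3b at -0.069 and Tet3 at -0.32 (HetKO against WT), and Dnmt1 at 0.017 and Tet3 at 0.34 (HM against HetKO). The share of calls that were higher moved from 36.5% to 50.7% with centring and 48.1% with quantile normalization (HetKO against WT), and from 40.4% to 60.9% and 49.3% (HM against HetKO).

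Same-numbered samples of different lines did not deviate together: the correlation of their deviations had a mean of 0.01, 0.06 and 0.02 in the 3 comparisons, with at most 2 of 6 pairs over 0.1. In the replicate block fit, 4 of the 10 genes were called for HM against WT (Dnmt3l added, adjusted p = 0.0224), 1 for HetKO against WT and 3 for HM against HetKO, and 6889, 1206 and 4200 of all genes. Without a known depth, the precision of low values such as Dnmt3l in HetKO could not be set.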

Other observations

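Some markers of the line itself also differed between lines. Of 11 embryonic carcinoma markers, 4 were higher and 2 lower between HM and WT by limma (6 and 2 after centring). This is near the 51.4% called among all genes, 19.4% higher and 32.0% lower. Fgf5, a gene of primed pluripotency, was 3.97 to 8.97 TPM in WT, 1.00 to 2.63 TPM in HetKO and 19.05 to 59.6 TPM in HM, with the highest values in HM replicates 5 and 6. Those 2 samples also held the highest Dnmt3a, Dnmt3b and Trim28. Utf1 was higher in HM by 0.81 on the log2 scale, and Sall4 (-1.83) and Nanog (-1.24) were lower. Among 8 tested markers of differentiated cells 3 were higher and 3 lower, beside the same 51.4% of all genes. T (1.80) and Myh6 (1.04) were higher and Gata6 (-0.83) and Pecam1 (-0.83) lower. Over the tested genes within 5 Mb of each of the 10 genes, the median log2 fold change of HM against WT lay between -0.22 (around Zfp57) and 0.05 (around Dnmt3a).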
